A study of Mus musculus with 10 samples.

Results

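Hox genes of paralogue groups 1 and 2 stand at the 3' ends of their clusters, and 4 of them were followed here in mouse embryonic stem cells under retinoic acid: Hoxb1 and Hoxd1 of group 1, and Hoxa2 and Hoxb2 of group 2. They were chosen by gene symbol and paralogue group, not by their measured values. They are 4 of 52636 gene identifiers counted, and all 4 had enough reads for the test, which covered 16005 genes. The cells were of the E14 line, a mouse embryonic stem cell line in wide use for differentiation studies. All RNA-seq cells had been moved out of medium with LIF and the MEK and GSK inhibitors PD0325901 and CHIR99021 into medium with retinoic acid, at 2 µM (the labels write µm), for 24 h. Unedited cells (WT, 2 libraries) were compared with cells from which a site bound by CTCF, a protein that organizes chromatin loops, had been removed (CBE-KO, 2 libraries). The study asked how this site shapes the contacts of HoxA with enhancers close to it. The labels do not say whether the CBE-KO cells were 1 clone, or that the 2 libraries of a group came from separate cultures beyond a general statement of biological replicates, so p-values measure the spread between these libraries.

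Hox proteins are homeodomain transcription factors that give cells their position along the head-to-tail axis. Genes at the 3' end of a cluster, groups 1 and 2 among them, are switched on first and reach farthest forward, into the hindbrain, and retinoic acid acts on several of them through retinoic acid response elements in and near the clusters. Group 1 and 2 proteins bind DNA with the TALE homeodomain cofactors of the Pbx and Meis families. Hoxb1 sets the identity of a hindbrain segment that gives rise to facial motor neurons and maintains its own transcription there. Hoxa2 specifies the skeleton of the second pharyngeal arch. Hoxb2 acts downstream of Hoxb1 and of Egr2 in the hindbrain, and Hoxd1 shapes pain-sensing neurons in the mouse.

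Coordinates are those of RefSeq on GRCm38.p6, the assembly that corresponds to the mm10 build named in the submitters' processing notes. Hoxb1 (ENSMUSG00000018973) spans chr11:96365746-96368254, and Hoxb2 (ENSMUSG00000075588) lies 11.7 kb away in the same cluster at chr11:96351632-96354020. Hoxa2 (ENSMUSG00000014704) spans chr6:52162417-52164831 and Hoxd1 (ENSMUSG00000042448) spans chr2:74762980-74765142. The spans are of like length, 2509, 2389, 2415 and 2163 bases in that order. RefSeq promoter sequences were found for 3 of the 4, and none for Hoxb2. The 250 bases before the transcript start are printed 5' to 3' on the gene's strand, to show how far the sequence at these starts differs between genes that retinoic acid acts on. The Hoxb1 window follows the start in the RefSeq promoter table, and its last bases lie inside the span given above. Capitals mark CCAAT and the Hox-Pbx core TGATNNAT on either strand.
Hoxb1, chr11:96365508-96365757, plus strand: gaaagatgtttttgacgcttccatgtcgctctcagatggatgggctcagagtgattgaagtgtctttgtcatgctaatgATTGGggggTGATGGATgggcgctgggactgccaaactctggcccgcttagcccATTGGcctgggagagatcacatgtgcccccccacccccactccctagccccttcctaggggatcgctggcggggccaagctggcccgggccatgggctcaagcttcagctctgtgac
Hoxd1, chr2:74762730-74762979, plus strand: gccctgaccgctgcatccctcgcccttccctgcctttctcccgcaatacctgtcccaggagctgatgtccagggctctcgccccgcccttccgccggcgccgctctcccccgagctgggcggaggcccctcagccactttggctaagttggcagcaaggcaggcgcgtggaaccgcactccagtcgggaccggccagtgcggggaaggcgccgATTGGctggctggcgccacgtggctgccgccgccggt
Hoxa2, chr6:52164832-52165081, minus strand: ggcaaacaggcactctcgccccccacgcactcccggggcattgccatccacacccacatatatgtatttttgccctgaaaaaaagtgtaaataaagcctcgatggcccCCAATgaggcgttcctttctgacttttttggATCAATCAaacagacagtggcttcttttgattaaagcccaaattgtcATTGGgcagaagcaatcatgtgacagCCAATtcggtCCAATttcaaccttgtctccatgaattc

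The Hoxb1 window held 1 match to TGATNNAT, TGATGGAT, which begins 162 bases before the start. The Hoxa2 window held 1 on the opposite strand, ATCAATCA, 111 bases before the start, and the Hoxd1 window had none. Of 32851 RefSeq windows of this length, 7.68% held this core. CCAAT was found 4 times before Hoxa2, 2 times before Hoxb1 and 1 time before Hoxd1, and 33.8% of all windows held it. None of the 3 windows held TATAAA or the retinoic acid half-site AGGTCA, searched on both strands. These letters occurred in 12.4% and 14% of all windows. The windows also differed in base composition: GC content was 71.6% before Hoxd1, 59.2% before Hoxb1 and 46.4% before Hoxa2, with a median of 52.4% over all windows.

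The 4 libraries held 14108038 to 15632960 counts. At this depth 3 counts, taken as the floor of detection, were worth 0.185 to 0.218 CPM (counts relative to library size, with edgeR's TMM scaling). All 8 pluripotency markers listed for the labelled cell type were detected. Of them 2 passed as higher and 5 as lower in CBE-KO, against 21.6% and 21.5% of all tested genes. The markers summed to 7459 and 7265 CPM of the library total in WT against 7697 and 7792 CPM in CBE-KO. The sum is led by Dppa5a, which rose from 3497 to 4255 CPM (TMM-scaled). With library totals CBE-KO values stand higher against WT: the median log2 fold change of all tested genes was 0.11, against 0.0067 with TMM. Pou5f1 fell from 1028 to 816 CPM and Utf1 from 756 to 237 CPM. The element is noncoding, so gene counts cannot show its loss. The groups also differed in Y-linked transcripts: Ddx3y was counted 6 and 5 times in WT against 920 and 822 times in CBE-KO. Eif2s3y had 3 and 5 counts in WT against 888 and 779, and Uty 2 and 0 against 293 and 267. Kdm5d was scarce in both groups, at 1 and 0 counts in WT against 4 and 7. The Y-linked difference and the deletion cannot be told apart in 2 groups of 2 libraries.

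Of the 4 genes, 1 passed the test between CBE-KO and WT, Hoxd1, which was higher in CBE-KO. Over all 16005 tested genes, 43.1% passed edgeR's quasi-likelihood test at an adjusted p under 0.05, 21.6% as higher and 21.5% as lower. All 4 fitted differences were above 0, with a median log2 fold change of 0.32 against 0.0067 over all tested genes. In bulk RNA, more cells that transcribe a gene and more transcript per cell cannot be told apart.

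Hoxb1 was the most abundant of the 4 in every library. Its WT counts were 149 and 139 and its CBE-KO counts 193 and 166. On the CPM scale these are 10.2 and 10.1 against 11.9 and 11.4. Both CBE-KO libraries lay above both WT libraries, as they did for 36.5% of all tested genes. The gap was small: the log2 fold change was 0.20 ± 0.14 (SE), with a 95% interval from -0.10 to 0.50, and did not pass (edgeR adjusted p = 0.280). On the linear scale the interval ran from 0.933-fold to 1.41-fold, so a 2-fold rise of Hoxb1 lay outside it.

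Hoxd1, the other group 1 gene, was scarce in WT. Its WT counts were 15 and 16 and its CBE-KO counts 36 and 31. These correspond to 1.095 ± 0.097 CPM in WT against 2.17 ± 0.062 CPM in CBE-KO (SD, n = 2 each), and the groups did not overlap. The log2 fold change was 0.99 ± 0.35 (SE), with a 95% interval from 0.26 to 1.72, and it passed in edgeR (adjusted p = 0.0288). The call rests on few reads. DESeq2 gave a like size, 0.98 ± 0.56 (SE), that did not pass (adjusted p = 0.190; 28.6% of tested genes passed in DESeq2), and with any 1 of the 4 libraries left out the edgeR adjusted p ranged from 0.0584 to 0.147.

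Hoxa2, the group 2 gene of the cluster named in the study's question, had WT counts of 82 and 55 and CBE-KO counts of 84 and 100. The levels were 5.61 and 3.999 CPM in WT against 5.18 and 6.87 CPM in CBE-KO, so the groups overlapped: the lower CBE-KO library lay below the higher WT library. The log2 fold change was 0.32 ± 0.22 (SE), with a 95% interval from -0.16 to 0.79, and did not pass (edgeR adjusted p = 0.276). It depended on the library, from 0.09 without WT replicate 2 to 0.58 without WT replicate 1.

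Hoxb2, the other group 2 gene, had WT counts of 13 and 23 and CBE-KO counts of 26 and 23. At 0.890 and 1.67 CPM the WT libraries lay on either side of the CBE-KO libraries, which had 1.60 and 1.58 CPM. The log2 fold change was 0.32 ± 0.39 (SE), with a 95% interval from -0.49 to 1.13 that spans 0.710-fold to 2.20-fold, and did not pass (edgeR adjusted p = 0.540). Its sign turned, to -0.073, without WT replicate 1. The RefSeq span of the noncoding gene Hoxb3os covers 1763 of the 2389 bases of Hoxb2. Hoxb3os was counted 7 and 13 times in WT against 5 and 5 times in CBE-KO, and was not tested. Use of strand in the counting is not given in the sources used here. It is thus not known to which gene reads over the shared bases were counted, if to any. The levels and ratios of Hoxb2 below carry this limit.

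**Figure D1:**
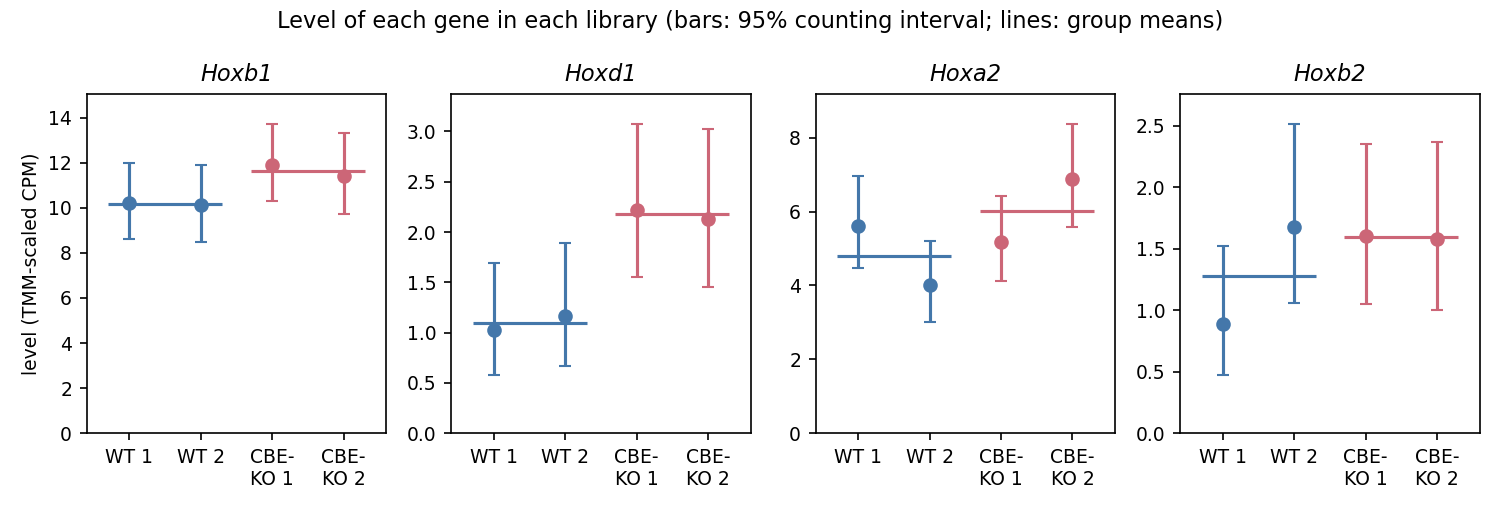
Level of Hoxb1, Hoxd1, Hoxa2 and Hoxb2 in each library in TMM-scaled CPM, with separate vertical axes that start at 0; points are libraries, bars are exact 95% Poisson intervals of the counts, and lines are group means. Only for Hoxb1 and Hoxd1 do both CBE-KO points lie above both WT points, and for Hoxa2 and Hoxb2 the groups overlap.

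Counting error alone was wide for the scarce genes. The exact 95% Poisson interval of the Hoxd1 count in WT replicate 1 ran from 0.575 to 1.69 CPM, and that of CBE-KO replicate 1 from 1.55 to 3.07 CPM. For Hoxb1 the corresponding intervals were 8.63 to 12 and 10.3 to 13.7 CPM. The intervals are those of the counts alone, and reads that are PCR copies are not independent molecules. The standard errors of Hoxd1 and Hoxb2 were larger than those of 82.6% and 86.0% of all tested genes, and that of Hoxb1 than 56.3%. The 95% interval of Hoxb2 includes the fold change measured for Hoxd1.

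Levels were next compared between genes, per kilobase of RefSeq gene span, which includes introns. In WT the order was Hoxb1 at 4.05 ± 0.026 CPM per kb, Hoxa2 at 1.99 ± 0.472, Hoxb2 at 0.536 ± 0.232 and Hoxd1 at 0.506 ± 0.045 (SD, n = 2 each). Hoxb2 and Hoxd1 did not differ beyond their spread, as the 2 Hoxb2 values lay on either side of the Hoxd1 values. In CBE-KO, Hoxb1 was at 4.64 ± 0.136, Hoxa2 at 2.49 ± 0.497, Hoxd1 at 1.01 ± 0.029 and Hoxb2 at 0.666 ± 0.0063 CPM per kb. Hoxd1 then lay above Hoxb2 in both libraries. Hoxb1 made up 57.5% and 59.7% of the summed CPM of the 4 genes in WT and 56.9% and 51.9% in CBE-KO. The share of Hoxd1 went from 5.79% and 6.86% to 10.6% and 9.69%. The summed level of the 4 was 17.7 and 16.9 CPM in WT and 20.9 and 22.0 CPM in CBE-KO.

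Paralogues were compared by the ratio of their counts within a library, which does not depend on how libraries are scaled, with 0.5 added to each count. There were 3 tests, and with 2 libraries against 2 an exact permutation test cannot give a p below 0.333. Hoxb1 exceeded its group 1 paralogue Hoxd1 by 9.65-fold and 8.45-fold in the WT libraries and by 5.30-fold and 5.29-fold in the CBE-KO libraries. The groups did not overlap, and the log2 ratio was lower in CBE-KO by a difference of -0.77 (exact permutation p = 0.333, two-sided; Benjamini-Hochberg adjusted p = 0.999). Hoxa2 exceeded its group 2 paralogue Hoxb2 by 6.11-fold and 2.36-fold in WT and by 3.19-fold and 4.28-fold in CBE-KO. Both CBE-KO ratios fell between the WT ratios, and the log2 difference was -0.041 (exact permutation p = 1.0). Within the HoxB cluster, Hoxb1 exceeded Hoxb2 by 11.1-fold and 5.94-fold in WT and by 7.30-fold and 7.09-fold in CBE-KO, which also overlapped (log2 difference -0.17, exact permutation p = 1.0).

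The genes on either side of Hoxa2 rose in CBE-KO while Hoxa2 itself did not pass. Hotairm1, a noncoding RNA gene 396 bases away, was counted 45 and 65 times in WT against 181 and 165 times in CBE-KO. It rose by 1.53 ± 0.20 on the log2 scale (SE; edgeR adjusted p = 7.41e-06), with a 95% interval from 1.11 to 1.95. On the other side, Hoxaas2, 842 bases away and also noncoding, was counted 25 and 22 times in WT against 71 and 74 times in CBE-KO (log2 fold change 1.51 ± 0.26, SE; edgeR adjusted p = 0.000173). The next Hox gene, Hoxa3, rose from 17.1 ± 0.369 to 43.3 ± 2.38 CPM (SD, n = 2 each; edgeR adjusted p = 2.52e-09), with a 95% interval of the log2 fold change from 1.16 to 1.53. The upper end for Hoxa2, 0.79, lies below the lower ends for Hotairm1, Hoxaas2 (0.95) and Hoxa3. These intervals are those of all 4 libraries, and the fitted change of Hoxa2 was 0.58 without WT replicate 1. The count ratio of Hoxa3 to Hoxa2 was 3.07 and 4.17 in WT against 8.01 and 6.52 in CBE-KO, without overlap, a log2 difference of 1.01. That of Hoxaas2 to Hoxa2 was 0.309 and 0.405 in WT against 0.846 and 0.741 in CBE-KO, a log2 difference of 1.16. The log2 ratio of Hotairm1 to Hoxa2 differed by 1.22, also without overlap. The RefSeq span of Hoxa3 covers those of Hoxa4 to Hoxa6 and shares bases with that of Hoxaas2. How reads on shared bases were counted is not given in the sources used here. These ratios to neighbours, like those in HoxB and HoxD, were chosen after the values were seen and were not tested.

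Beyond them, Hoxa4 rose by 0.95 ± 0.13 (SE; edgeR adjusted p = 1.77e-05). Skap2, an adaptor protein gene on the cluster's 3' side and 150 kb from Hoxa2, was at 55.7 and 55.6 CPM in WT against 72.9 and 72.7 CPM in CBE-KO (log2 fold change 0.39, edgeR adjusted p = 6.77e-05). Halr1, a noncoding RNA gene between them, did not pass (0.11, edgeR adjusted p = 0.106), but passed with upper-quartile scaling (adjusted p = 0.0297), with library totals (0.00177) and without WT replicate 1 (0.00443). Snx10 lay farther out at -0.053 (edgeR adjusted p = 0.643), and its sign turned with library totals.

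In the HoxB cluster the next genes, Hoxb3 and Hoxb4, had small differences too. Hoxb3, 3.70 kb from Hoxb2, was counted 40 and 59 times in WT against 69 and 54 times in CBE-KO. The fitted log2 difference, 0.19 ± 0.25 (SE), did not pass (edgeR adjusted p = 0.587) and turned to -0.11 without WT replicate 1. The count ratio of Hoxb3 to Hoxb2 was 3.00 and 2.53 in WT against 2.62 and 2.32 in CBE-KO, which overlap. The RefSeq span of Hoxb3 covers that of Hoxb4 and shares bases with that of Hoxb3os, and how reads there were counted is not given. Hoxb4 rose by 0.26 ± 0.07 (SE; edgeR adjusted p = 0.00695), from 41.0 to 49.1 CPM, a call lost in DESeq2 (adjusted p = 0.0807). The interval of Hoxb1, up to 0.50, includes that change. Hoxb5 had a fitted difference of -0.24 that did not pass (edgeR adjusted p = 0.243) but passed as lower without CBE-KO replicate 2 (-0.47, adjusted p = 0.0347). The other HoxB genes tested, Hoxb6 to Hoxb9 and Hoxb13, passed as higher. Hoxb5os did not pass (1.502, edgeR adjusted p = 0.0599). On the 3' side, Skap1, 96.3 kb from Hoxb1 and a relative of Skap2, rose from 11 and 7 counts to 34 and 29 (1.68 ± 0.40, SE; edgeR adjusted p = 0.00259). Snx11 did not pass (0.070, turning to -0.063 without WT replicate 1). Cbx1, a heterochromatin protein gene, fell by 0.16 on the log2 scale, a call lost with library totals (adjusted p = 0.369) and without CBE-KO replicate 1 (0.120).

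Around Hoxd1 most HoxD genes were close to the floor. Haglr, a noncoding RNA gene whose span lies 83 bases from Hoxd1, was counted 6 and 2 times in WT against 19 and 17 times in CBE-KO (log2 fold change 2.02 ± 0.56, SE; edgeR adjusted p = 0.00743), a call lost in DESeq2 (adjusted p = 0.0758) and without WT replicate 2 (edgeR adjusted p = 0.107). Reads of Hoxd1 and Haglr were both more numerous in CBE-KO, and the count ratio of Haglr to Hoxd1 was 0.419 and 0.152 in WT against 0.534 and 0.556 in CBE-KO. Hoxd3 had 0 counts in every library, and Hoxd4 had 1 and 0 in WT against 2 and 4 in CBE-KO. The RefSeq span of Hoxd3 covers that of Hoxd4, and how reads on shared bases were counted is not given. Hoxd8, with 3 and 2 counts in WT against 18 and 14, was at least 4.89-fold higher in CBE-KO if WT is set to the floor of 3 counts per library (edgeR adjusted p = 0.00312). On the other side of Hoxd1, Mtx2, a mitochondrial import gene 60.7 kb away, did not pass (-0.076, edgeR adjusted p = 0.388), and its sign turned with library totals. Hnrnpa3 did not pass (0.094), its WT counts being 1622 and 953. It passed as higher without WT replicate 1 (0.48) and as lower without WT replicate 2 (-0.21). Nfe2l2, the gene of an oxidative stress regulator, was higher by 0.33 (edgeR adjusted p = 0.000340).

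**Figure D2:**
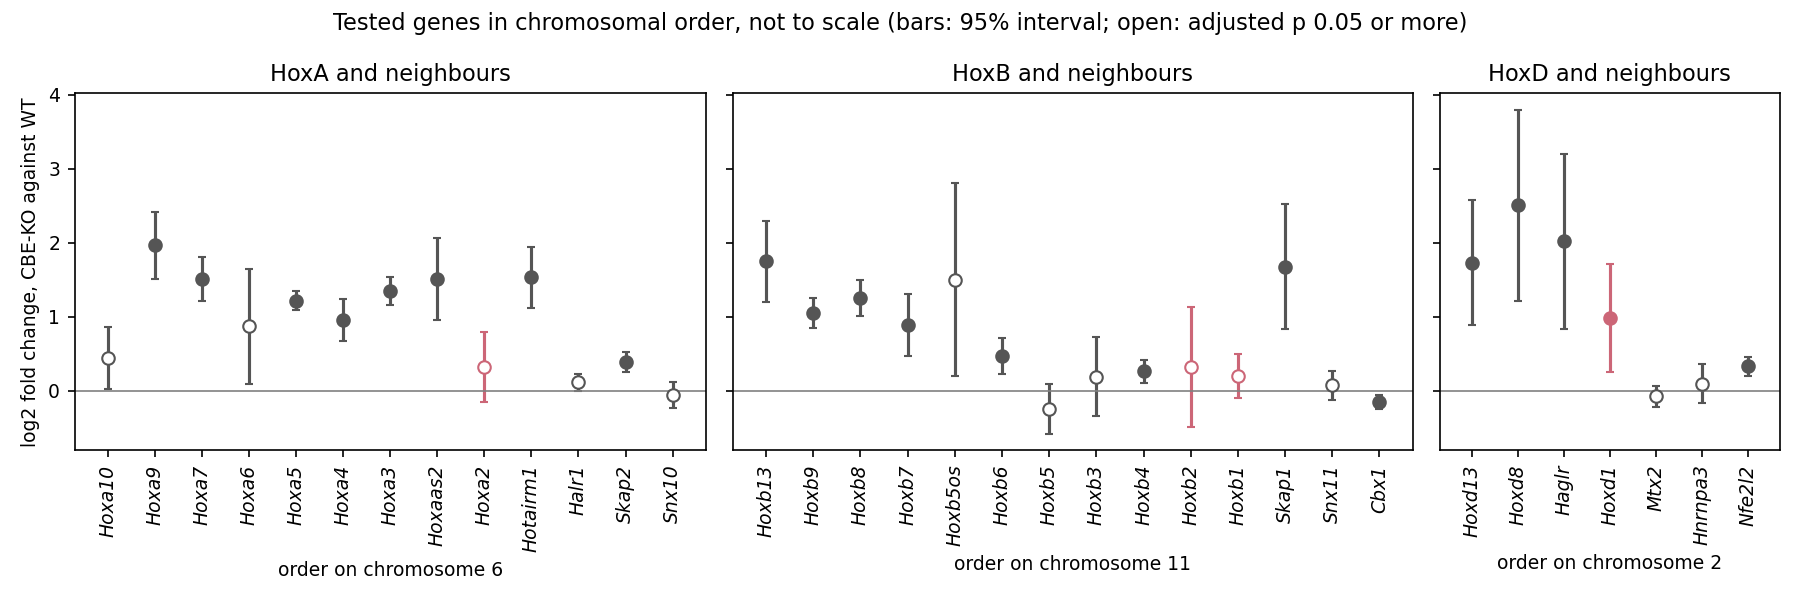
Log2 fold change (CBE-KO against WT) of the tested genes of HoxA, HoxB and HoxD and of the listed genes beside them, in chromosomal order and not to scale; bars are 95% intervals, red marks Hoxa2, Hoxb2, Hoxb1 and Hoxd1, and open points had an edgeR adjusted p of 0.05 or more. Hoxa2 lies below Hoxaas2 and Hotairm1 on its flanks, while Hoxb2 and Hoxb1 lie level with Hoxb3 and Hoxb4.

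**Figure D3:**
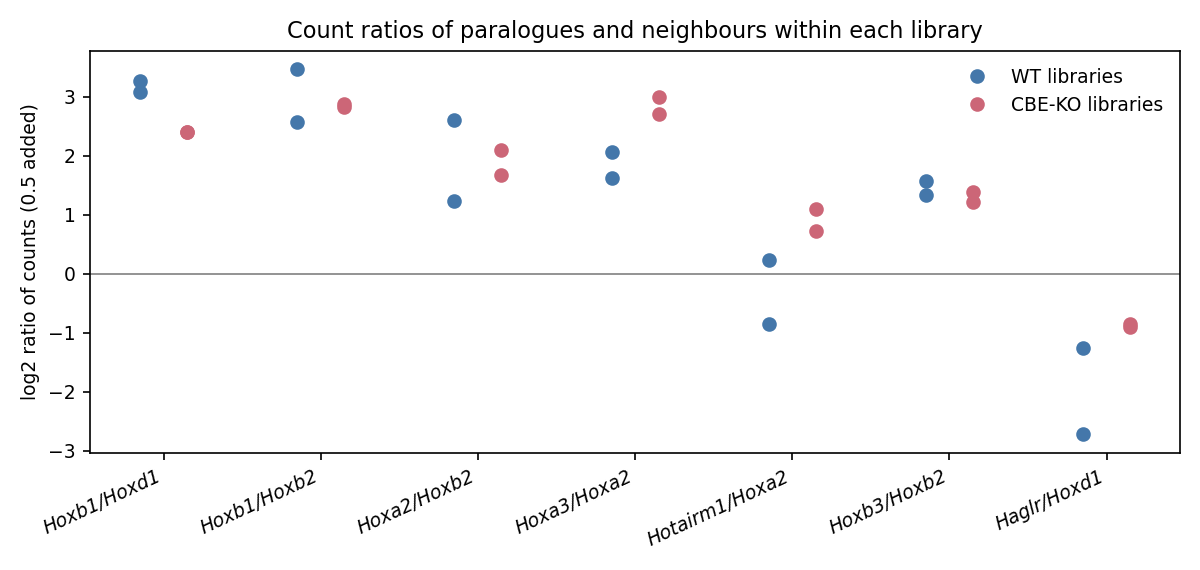
Log2 ratio of the counts of 2 genes within each library, with 0.5 added to each count; points are libraries. The CBE-KO points lie apart from the WT points for Hoxb1/Hoxd1, Hoxa3/Hoxa2, Hotairm1/Hoxa2 and Haglr/Hoxd1, and overlap them for Hoxb1/Hoxb2, Hoxa2/Hoxb2 and Hoxb3/Hoxb2.

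Over all tested genes 43.1% passed, and of the 4 genes of groups 1 and 2, too few to set apart from that share, 1 passed. Of 34 other Hox genes on the list, 24 were tested, and 20 of these passed, all higher in CBE-KO. The median log2 fold change of the 24 was 1.43, also with WT set to the floor of 3 counts for genes at or under it. In groups 3 and 4, 4 of 5 tested genes passed, with a median of 0.95. By cluster, without the 4 genes of groups 1 and 2, 5 of 7 tested HoxA genes and 6 of 8 HoxB genes passed. So did 7 of 7 HoxC genes and 2 of 2 HoxD genes. HoxC has no gene of groups 1 and 2. The 3 genes of the list with the largest fitted changes were in HoxC. Hoxc6 had 2 and 2 counts in WT against 58 and 47, and was 16.1-fold higher in CBE-KO with WT set to the same floor. Hoxc8 (0 and 1 counts against 53 and 34) and Hoxc9 (0 and 2 counts against 43 and 47) were at least 13.2-fold and 13.9-fold higher. These counts describe the lists, and no difference between the lists was tested.

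**Figure D4:**
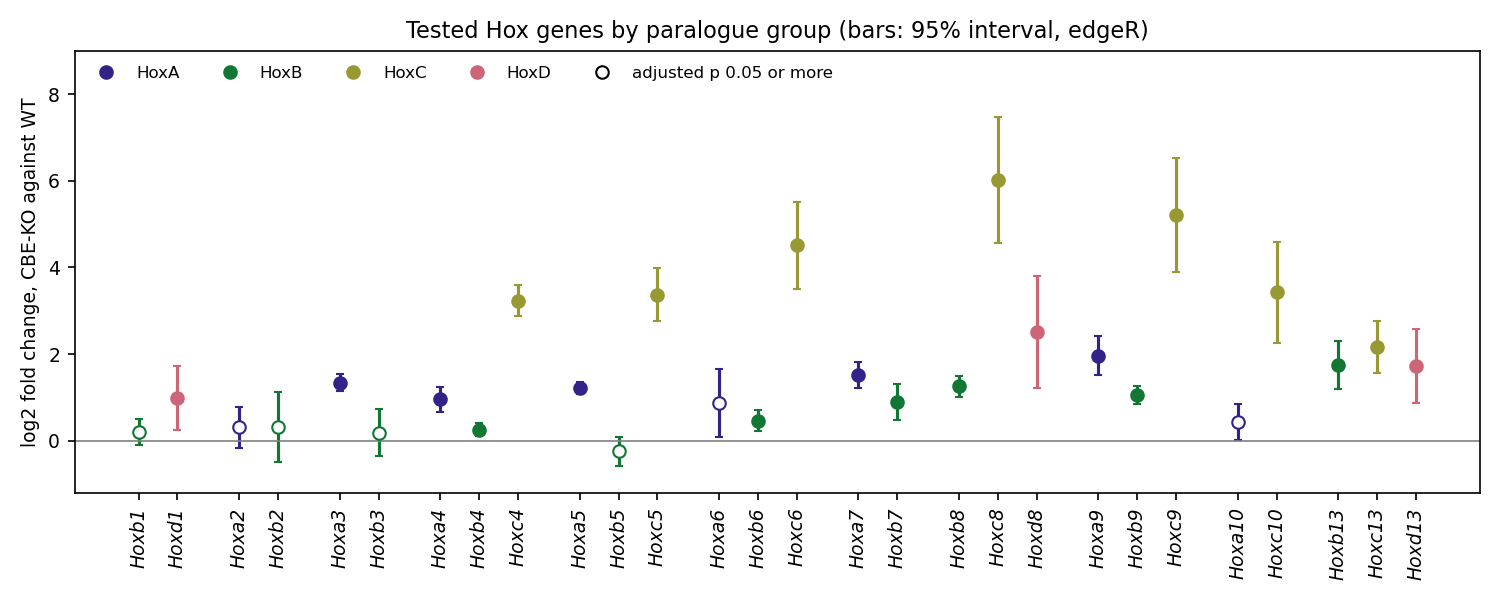
Log2 fold change (CBE-KO against WT) of the tested Hox genes on the list by paralogue group, coloured by cluster; bars are 95% intervals, and open points had an edgeR adjusted p of 0.05 or more. Hoxb1, Hoxa2 and Hoxb2 are open and near 0, and the fitted values of Hoxc6, Hoxc8, Hoxc9 and Hoxd8 depend on a prior count, since each had at most 3 counts in both WT libraries.

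The partners and regulators of these genes were examined from lists of known genes. Of 10 TALE cofactor genes, all tested, 5 passed as higher and 1 as lower, with a median log2 fold change of 0.27. The share that passed was 60.0%, against 43.1% of all tested genes. Meis2 rose from 28.6 ± 2.67 to 52.5 ± 1.74 CPM (SD, n = 2 each; log2 fold change 0.88, edgeR adjusted p = 1.64e-07). Meis1 rose by 0.78. Pbx2, the most abundant Pbx gene at 190 CPM in WT, fell by 0.29 on the log2 scale (edgeR adjusted p = 9.83e-05).

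Of 20 genes of retinoic acid receptors, binding proteins and enzymes, 18 were tested, 10 passed as higher and 5 as lower, with a median of 0.41. Here 83.3% of those tested passed, against 43.1% of all tested genes. Among the receptors that act at Hox response elements, Rara went from 117 to 155 CPM (0.41 ± 0.05, SE), and Rarb from 4.71 to 8.87 CPM (0.91 ± 0.19, SE). Rarg, the most abundant of these at 478 CPM in WT, fell to 299 CPM. Cyp26a1, the enzyme that breaks down retinoic acid and is itself induced by it, rose from 178 ± 0.079 to 579 ± 3.396 CPM (SD, n = 2 each; edgeR adjusted p = 3.57e-14), with a 95% interval of the log2 fold change from 1.601 to 1.799. Aldh1a2, which makes retinoic acid, rose by 1.53 from 11 and 13 counts to 40 and 36. Stra6, the cellular importer of vitamin A, rose by 1.39. In the same libraries Hoxb1 was at 10.2 and 10.1 CPM in WT against 11.9 and 11.4 CPM in CBE-KO. A link between these genes and the 4 Hox genes was not tested.

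Genes of hindbrain segmentation, the process in which these Hox genes act in the embryo, were mostly low. Of 25 such genes, 18 were tested, 5 passed as higher and 2 as lower, with a median log2 fold change of 0.23. These are 38.9% of those tested, near the 43.1% of all tested genes that passed. Egr2, a direct activator of Hoxa2 and Hoxb2 in the hindbrain, had 0 and 0 counts in WT against 2 and 0 in CBE-KO. The largest changes that passed were those of Zfp503 (3.22 ± 0.38, SE) and Slit2 (1.69 ± 0.41, SE), which were higher, and Gbx2, which fell from 29.1 ± 0.346 to 9.95 ± 0.124 CPM (SD, n = 2 each; edgeR adjusted p = 5.77e-09).

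To find genes with a pattern like that of each Hox gene, log2 CPM centred on each gene's mean were compared over the 4 libraries among genes within 2-fold of its mean level. Nearest to Hoxb1 among 3598 genes were Prkag2, Zfp2 and Bspry, at Euclidean distances of 0.013, 0.027 and 0.029. Nearest to Hoxd1 among 3154 genes were C330021F23Rik, Axl and D330045A20Rik (0.083, 0.092 and 0.100). Nearest to Hoxa2 among 3006 genes were Gm6257, Pemt and Tlx2 (0.069, 0.076 and 0.089), and to Hoxb2 among 3192 genes Gm48171, Nkx2-5 and Gm48496 (0.050, 0.085 and 0.095). No Hox gene was among them. These matches rest on 4 libraries in 2 groups and are given as a description.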

How the data were processed

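Gene expression was measured by RNA-seq in 4 libraries, 2 WT and 2 CBE-KO, and 6 Capture-C samples of chromatin contacts were not used. The authors deposited whole-number read counts per Ensembl gene identifier, 1 table per library, as the values show. The submitters' processing notes name HISAT2 2.1.0, HTSeq 0.9.1 and the mm10 build, with no role or order, and use of strand is not given in the sources used here. Titles gave each library's group and replicate number. Genes were filtered with filterByExpr, scaled by TMM and tested with edgeR 4.0.16 (R 4.3.3; glmQLFit and glmQLFTest, two-sided, Benjamini-Hochberg over 16005 genes, threshold 0.05). DESeq2 1.42.0, other scalings, filters, a replicate block and the omission of each library were alternatives. Symbols came from a gene name table and spans and promoters from RefSeq (GRCm38.p6), matched by symbol. Scripts were tested on simulated counts. The genes and lists were chosen with earlier results of these data known. The values of some genes covered by these lists are not reported here. Genes named were the 3 passing genes of each list that changed most on the log2 scale, all flanking genes, the next paralogues in the same clusters, the 3 genes most like each Hox gene, and Rara, Rarb, Rarg, Cyp26a1 and Egr2. Hoxb5 to Hoxb9, Hoxb13, Pbx2, Cdx1 and the Y-linked and marker genes were added after their values were seen.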

Additional observations from a re-analysis of the deposited data

How the results depend on the processing

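The differences of Hoxb1, Hoxa2 and Hoxb2 kept their sign and did not pass in all 9 alternatives of test, scaling, filter, moderation and block: 0.19 to 0.30 for Hoxb1, 0.30 to 0.42 for Hoxa2 and 0.31 to 0.42 for Hoxb2. Hoxd1 lay between 0.98 and 1.09 and passed in 8 of 9, the exception being DESeq2 (0.98, adjusted p = 0.190). With 1 library left out, log2 fold changes ranged from 0.17 to 0.23 for Hoxb1, 0.90 to 1.07 for Hoxd1, none of which passed, 0.091 to 0.58 for Hoxa2 and -0.073 to 0.83 for Hoxb2. The fits with 1 library left in a group take its spread from the other group. The Hoxb1/Hoxd1 difference in log2 ratio ranged from -0.87 to -0.68 without 1 library, that of Hoxb1/Hoxb2 from -0.62 to 0.28, and that of Hoxa2/Hoxb2 from -0.73 to 0.64, with 0.028 when 5 counts were added. The last 2 ratios thus have no fixed direction. The count of changed genes, 6895, was 4577 in DESeq2, 1383 when a log2 change of 1 or more in size was also asked, and 5492 to 6420 without 1 library. Library totals moved the median of all genes to 0.11, and 67.0% of changed genes were then higher, against 50.2% with TMM. With the replicate number as a block, the log2 fold changes were 0.20, 0.99, 0.32 and 0.34 for Hoxb1, Hoxd1, Hoxa2 and Hoxb2, no call changed among them, and 7027 genes passed. Deviations of same-numbered libraries had a correlation of 0.035, so the numbers were not taken to pair them. Depth limits Hoxd1 and Hoxb2 most, at 13 to 36 counts per library.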

Other observations

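Caudal and Wnt inputs to Hox clusters were also listed. Of 10 such genes, 7 were tested, 3 passed as higher and 1 as lower, with a median log2 fold change of 0.22. These are 57.1% of those tested, against 43.1% of all tested genes. Wnt8a, a posterior signal of the early embryo, fell from 45 and 55 counts to 20 and 21 (-1.40 ± 0.30, SE; edgeR adjusted p = 0.00109). Fgf8 (1.42) and Gdf11 (0.54) passed as higher, calls that DESeq2 did not make (adjusted p = 0.207 and 0.184). Cdx1, a direct retinoic acid target that activates Hox genes, was higher by 0.32.

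Markers of other cell types were summed by list. With library totals the median log2 fold change of all tested genes was 0.11, against 0.0067 with TMM. On this scale CBE-KO values thus stand higher against WT than with TMM. Summed levels, in CPM of the library total, were 73.1 and 73.9 in WT and 80.5 and 79.7 in CBE-KO for 8 neural progenitor markers, 2 of 4 tested genes passing. They were 83.8 and 84.7 against 102 and 104 for 7 primitive endoderm markers, 3 of 7 passing as higher. For 7 trophoblast markers they were 108 and 98.2 against 116 and 118. Of 6 tested trophoblast markers, 2 passed as higher and 1, Tfap2c, as lower (-0.74, edgeR adjusted p = 5.39e-05). Summed mesoderm levels (6 markers) were 4.39 and 4.37 against 6.33 and 6.38, 1 of 4 passing as higher. Those of 6 fibroblast markers were 10.9 and 12.5 against 15.3 and 18.1, 1 of 2 passing as higher. Over all tested genes 43.1% passed, 21.6% as higher and 21.5% as lower. Of the fibroblast markers, Col1a1 passed as higher (0.88, edgeR adjusted p = 0.00290), Col1a2 went from 0 and 1 counts to 12 and 8, Col3a1 from 0 and 0 to 8 and 1, and Dcn and Lum had 0 counts in all 4 libraries. Of the neural progenitor markers, Pax6 (1.96) and Sox1 (0.58) passed as higher. The other tested ones, Zic2 (-0.096, edgeR adjusted p = 0.274) and Nes (-0.31, edgeR adjusted p = 0.0687), were lower in CBE-KO and did not pass. The sign of Zic2 turned with library totals. Pax3, Hes5 and Olig2 had 0 counts in both WT libraries and at most 4 in a CBE-KO library. The part of these markers in the levels of the 4 Hox genes was not tested.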
